A study of Mus musculus with 6 samples.

Results

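Cytoplasmic ribosomal protein genes were followed in RNA from mouse small intestinal crypts with and without Fpr2, the gene of a receptor for formylated peptides. The genes were chosen by name: symbols that begin with Rpl or Rps and a number, Rplp0 to Rplp2 and Rpsa, without the S6 kinases (Rps6k) and without symbols marked as pseudogenes (-ps). Of 17526 genes in the deposited table, 89 symbols matched and 85 had a count of at least 10 in at least 3 libraries. These 85 are 35 genes with symbols of the small (40S) subunit and 50 with symbols of the large (60S) subunit. Of them, 77 encode core subunit proteins, and the other 8 are paralogs, retroposed copies or, in 1 case (Rps19bp1), a protein that binds the subunit protein Rps19.

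The study sequenced 6 libraries. The 3 floxed control libraries came from mice with a floxed Fpr2 gene and carry the genotype label WT. The 3 knockout libraries came from mice called VKO, whose genotype label gives Fpr2 as lost in the epithelium of the intestine. The title asks how the receptor bears on stem cell proliferation and differentiation in the crypt, the epithelial pocket that holds stem cells, their dividing progeny and Paneth cells. The Cre driver, strain, age and sex are not in the labels, nor is it stated that each library is a separate animal, so the p-values rest on a spread among libraries that may be technical only.

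The ribosome is built from ribosomal RNA made by RNA polymerase I and from the ribosomal proteins, which are made in the cytoplasm and assembled in the nucleolus with the help of biogenesis factors. Most ribosomal protein mRNAs are short and abundant and start with a run of pyrimidines, the 5′ terminal oligopyrimidine (TOP) tract, through which mTOR and Larp1 control their translation. Excess free Rpl5 and Rpl11 bind Mdm2 and raise p53 when assembly fails. In the crypt, dividing progenitors have a high demand for new ribosomes.

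Total estimated counts ran from 11108511 to 12075398 in floxed controls 1 and 3 and from 16542933 to 16859902 in the other 4 libraries. Epithelial markers were abundant in every library, with a summed level of 11762 to 15464 CPM (counts scaled to a common library size by the TMM method) in floxed controls and 12909.7 to 14834 in knockouts, and Epcam, Vil1 and Olfm4 were at or above 988 CPM in the mean of either group. Fpr2 itself was not analysed here, so the genotypes were not checked on the targeted gene. Floxed controls 1 and 3 stood apart on lymphocyte markers, and floxed control 2 and knockout 1 stood apart on clock genes and enterocyte markers. Fewer cells of a type and less RNA per cell cannot be told apart in such bulk libraries.

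Some of the genes have a near-identical copy that competes for 50-base reads, and the sequences show how little there is to separate them. The copies were compared over their coding bases, read 5′ to 3′ from GENCODE M21 transcripts on mm10 and counted from the A of the start codon. Rps6 (chromosome 4, 86854660 to 86857412, minus strand), the subunit protein phosphorylated by S6 kinase, was identical to the processed pseudogene Rps6-ps4 (chromosome 2, 75191073 to 75191822, minus strand) at 750 of 750 coding bases. Rps27 (chromosome 3, 90212522 to 90213651, minus strand) was identical to its retroposed copy Rps27rt (chromosome 9, 114982366 to 114982739, minus strand) at 255 of 255. Rpl37 (chromosome 15, 5116645 to 5119140, plus strand) differed from Rpl37rt (chromosome 5, 115102923 to 115110268, minus strand) by 1 substitution in 294 coding bases, G249A. Bases 1 to 60 of the first and the second pair and bases 190 to 249 of the third are shown, with the only differing base in capitals.
Rps6: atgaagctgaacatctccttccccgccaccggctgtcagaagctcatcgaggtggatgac
Rps6-ps4: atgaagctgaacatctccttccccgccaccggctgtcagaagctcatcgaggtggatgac
Rps27: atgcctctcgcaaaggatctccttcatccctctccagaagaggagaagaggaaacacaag
Rps27rt: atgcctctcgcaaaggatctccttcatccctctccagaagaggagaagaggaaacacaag
Rpl37: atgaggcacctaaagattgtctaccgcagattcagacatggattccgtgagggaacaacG
Rpl37rt: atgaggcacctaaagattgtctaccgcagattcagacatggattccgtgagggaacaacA

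The deposited table put nearly all reads of the Rps6 sequence on the pseudogene entry. Rps6-ps4 held between 97.1% and 97.7% of the counts of the 2 entries in each library. Rps6 was at 30.1, 36.5 and 34.7 CPM in the floxed libraries 1, 2 and 3 and at 30.6, 32.2 and 43.6 CPM in the knockout libraries 1, 2 and 3. Rps6-ps4 was at 995, 1574 and 1389 CPM in the floxed controls and at 1208, 1286 and 1648 CPM in the knockouts. The Rps6 row of the table therefore holds a small share of the reads that carry its sequence, and per kilobase it ranked among the lowest of the genes, at 39.4 CPM per kb. With both entries summed the level was 1577 CPM per kb. The summed entry ran from 1025 to 1610 CPM in the floxed libraries and from 1238 to 1691 CPM in the knockout libraries, which overlapped, with a log2 fold change of 0.07 ± 0.25 (SE; edgeR adjusted p = 0.942).

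The other copies divided their reads differently. Rps27 was at 285, 743 and 574 CPM in the floxed libraries and at 443, 468 and 571 CPM in the knockout libraries, and Rps27rt was far lower in all 6. Rpl37 was at 121, 256 and 198 CPM in the floxed libraries and at 176, 177 and 251 CPM in the knockout libraries. Rpl37rt, annotated in GENCODE as a transcribed processed pseudogene, was above Rpl37 in every library, at 179.6, 319.8 and 334 CPM in the floxed libraries and at 282, 239.9 and 346 CPM in the knockout libraries. Of the 84 genes with a GENCODE transcript, 82 shared at least one 50-base word with another gene, and 30 shared over 50% of their words. Only 19 shared words with a gene that has a row in the table, 10 of them for over 10% of their words. Rps27rt shared 91.1% with Rps27, Rps6 shared 84.6% with Rps6-ps4, and Rplp2, a stalk protein, shared 30.7% with Wdr89. How the counting assigned shared reads is not given in the sources used here, so the values of these copies are uncertain.

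**Figure D1:**
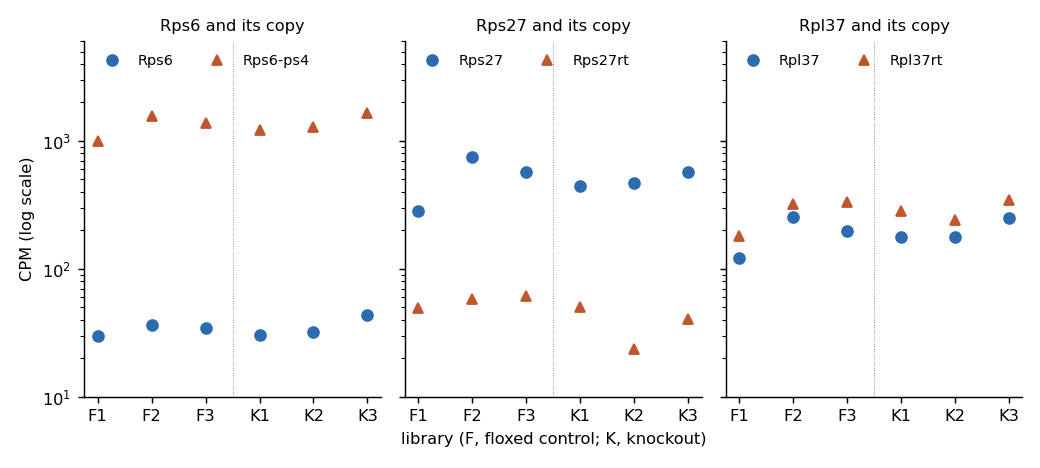
Level of Rps6, Rps27 and Rpl37 (circles) and of the near-identical copy of each (triangles) in the 6 libraries, in TMM-scaled CPM on a log axis. Rps6-ps4 lies between 995 and 1648 CPM while Rps6 stays between 30.1 and 43.6, and Rpl37rt lies above Rpl37 in every library.

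RefSeq starts (GRCm38.p6, the assembly of mm10) were matched for 65 of the 85 genes. A run of at least 8 pyrimidines that overlapped the 5 bases on either side of the start stood in 25 of the 65 (38.5%), against 11.4% of 27025 genes. The word CCGGAAG or its reverse complement CTTCCGG, the core bound by ETS factors, was in the 300 bases around the start (250 before and 50 after) of 25 genes (38.5%), against 9.93% of all. TATAAA, or TTTATA for the other strand, was in the 50 bases before the start of 1 (1.54%) against 4.17%. These are matches of letters, not binding sites. The 30 bases around the start (15 before it and 15 from it on, on the gene's strand) are shown for 8 of the 10 genes with the smallest p-values below, with runs of 8 or more pyrimidines in capitals. Rps10 and Rpl14 have such a run across the annotated start. The run of Rpl4 ends before the start and only reaches the outer edge of the 5 bases on that side. The other 5 have no such run. The starts used in these crypts were not measured and may differ from the annotated ones. A missing run here therefore does not show that an mRNA lacks a TOP tract.
Rps27rt, chr9:114982725-114982754, minus strand: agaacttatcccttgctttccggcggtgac
Rps10, chr17:27635230-27635259, minus strand: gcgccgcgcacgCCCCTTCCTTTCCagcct
Rplp0, chr5:115559452-115559481, plus strand: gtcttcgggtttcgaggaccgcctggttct
Rpl36al, chr12:69184053-69184082, minus strand: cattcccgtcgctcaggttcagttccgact
Rpl23, chr11:97782425-97782454, minus strand: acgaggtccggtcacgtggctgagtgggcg
Rpl4, chr9:64173372-64173401, plus strand: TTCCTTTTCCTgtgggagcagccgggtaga
Rpl5, chr5:107900513-107900542, plus strand: tctcacgtcgcttgcgtgctggtggtgcta
Rpl14, chr9:120571502-120571531, plus strand: gggcgggCCCTCTCTCTTCTCgctgagcgc

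The ribosomal protein genes were among the most abundant transcripts of the crypt. Together they took 4.69%, 7.71% and 5.96% of all counts in the floxed libraries 1, 2 and 3, against 6.43%, 6.64% and 8.23% in the knockout libraries 1, 2 and 3. The group means were 6.12% ± 1.52 and 7.10% ± 0.984 (SD, n = 3), and the groups overlapped. Alpha-defensin transcripts of Paneth cells take part of the same total and differed between the groups. With all genes named Defa taken out of the total, the shares were 7.11% ± 1.66 and 7.46% ± 0.987, so the means differed by less than the SD of either group on both scales.

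Per length, the median gene stood at 979.7 CPM per kb over the 6 libraries, against 11.7 for all genes tested. On that scale the highest 40S genes were Rps2, a protein of the mRNA entry channel, at 2788 CPM per kb (1843 to 3779 over the libraries), Rps15 at 2070.4 (1309 to 2849) and Rps12 at 2067 (1356 to 2817). Among the 3 highest 60S genes were Rplp0, the base of the stalk that recruits translation factors, at 3241 CPM per kb (2363 to 4301) and Rpl13a at 2398 (1521 to 3255). The ranges of these genes overlap. At the other end, Rps23rg1, a retroposed copy of Rps23, stood lowest, at 0.808 to 2.48 CPM per kb over the libraries, and Rps19bp1 at 27.0. Another 4 matched symbols did not reach a count of 10 in 3 libraries. Estimated counts, not scaled, were 0 to 3 for Rpl10l, 0 to 1.01 for Rpl39l and 0 to 4.87 for Rpl32l. Rpl3l, the muscle form of Rpl3, had 4.44 to 13.5 and reached 10 only in floxed control 1.

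No ribosomal protein gene passed the test for a difference between knockout and floxed control crypts. All 85 passed the filter on low counts and were among the 12943 genes tested. By edgeR's quasi-likelihood test with Benjamini-Hochberg adjustment over all genes tested, 0 of 85 passed an adjusted p of 0.05, with a smallest adjusted p of 0.350, against 0.0155% of all genes tested (2 genes). At an unadjusted p under 0.05, 1 of 85 passed (1.18%; Rps27rt), against 13.7% of all. DESeq2 called 0 of 85 (smallest adjusted p 0.340) against 2.35% of all genes, and limma-voom called 0 of 85 (smallest adjusted p 0.350) against 0.0155%. In no ribosomal protein gene did the 3 knockout values lie all above or all below the 3 floxed values, whereas the groups did not overlap in 17.3% of all genes tested. Floxed control 1 was the lowest library in 84 of the 85 genes and floxed control 2 the highest in 61, which by itself makes the groups overlap. The counts in this paragraph therefore do not rest on 85 independent values.

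The fold changes were small as well as short of the test. The median log2 fold change of knockout over floxed control was -0.01 for the 85 genes, with 41 positive and 44 negative values, and -0.01 for all genes tested. The split of signs moved with the scaling: 47 were positive and 38 negative with DESeq2 size factors, 52 and 33 with TMM without the 50 most abundant genes, and 83 and 2 with library totals alone. With TMM scaling the median log2 fold change was -0.005 for 40S symbols (17 positive, 18 negative) and -0.006 for 60S symbols (24 positive, 26 negative). The largest values were -0.56 (Rps27rt) and 0.29 (Rpl36al). An absolute log2 fold change under 0.2 was seen in 79 of 85 genes (92.9%), against 49.4% of all genes tested and 67.5% of 711 other genes of like abundance (mean log2 CPM of 7.54 to 10.3). Since the 85 genes rose and fell together across libraries, as described below, their share does not rest on 85 independent values. The median absolute change was 0.07, against 0.20 over all genes and 0.13 over those of like abundance. The SE of a gene's log2 fold change was 0.26 in the median and ran from 0.16 to 0.41, so these data do not resolve small differences. With factors from DESeq2, from TMM without the 50 most abundant genes or from TMM without the ribosomal protein genes, the members' median lay between -0.004 and 0.02. Library totals alone moved the median of all genes by 0.22 and put the members' median at 0.23, 0.03 above that of all genes.

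**Figure D2:**
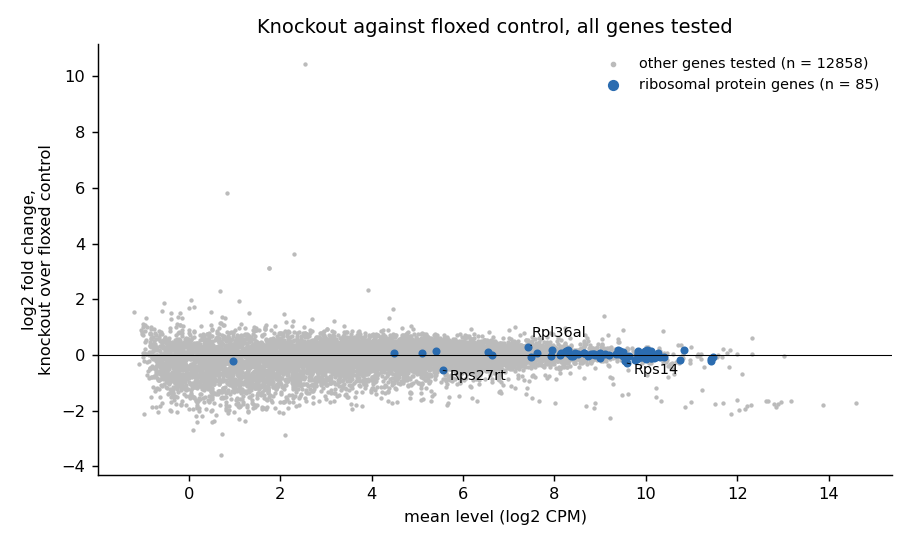
Log2 fold change of knockout over floxed control against the mean level in log2 CPM, with 1 point per gene tested. The 85 ribosomal protein genes (blue) lie between -0.56 (Rps27rt) and 0.29 (Rpl36al), and 79 of them are within 0.2 of no change.

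The 5 genes with the smallest p among those lower in knockouts included Rps27rt, Rps14, Rps10 and Rplp0, and none of the 5 passed the test. Rps27rt was at 49.7, 57.8 and 61.7 CPM in the floxed libraries and at 50.4, 23.7 and 40.9 CPM in the knockout libraries. Its groups overlapped by 1 library, knockout 1, which was above floxed control 1, and its log2 fold change was -0.56 ± 0.24 (SE; edgeR adjusted p = 0.350). It was -0.30 without knockout 2 and -0.80 without knockout 1. Since it shares most of its sequence with Rps27, that value is uncertain. Rps14, a protein of the 40S platform, was at 492, 1162 and 896 CPM in the floxed libraries and at 684, 576 and 819 CPM in the knockout libraries. All 3 knockouts lay inside the floxed range, and the log2 fold change was -0.29 ± 0.30 (edgeR adjusted p = 0.724). Rps10 (chromosome 17, 27630415 to 27635244), a 40S protein near the mRNA entry site, was at 487, 1009.5 and 898 CPM and at 689.8, 601 and 791 CPM, again with every knockout inside the floxed range. Rplp0 (chromosome 5, 115559467 to 115563729) was at 2018, 3673 and 3197 CPM and at 2626, 2248 and 2847 CPM. In Rplp0, too, floxed control 1 was lowest and floxed control 2 highest, and the log2 fold changes of Rps10 and Rplp0 were -0.20 ± 0.27 and -0.20 ± 0.28 (edgeR adjusted p = 0.806 and 0.808).

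The 5 genes with the smallest p among those higher in knockouts were all of the 60S subunit, and none passed the test. Rpl36al (chromosome 12, 69182734 to 69184067), the autosomal paralog of Rpl36a, was at 111, 201 and 149 CPM in the floxed libraries and at 176, 164 and 222 CPM in the knockout libraries. Knockouts 1 and 2 lay inside the floxed range, and the log2 fold change was 0.29 ± 0.23 (SE; edgeR adjusted p = 0.633). Rpl23, which binds Mdm2 when free, was at 192, 255 and 251 CPM and at 218, 241 and 325 CPM. Rpl4, which lines the peptide exit tunnel, was at 1567, 1806 and 1739 CPM and at 1659, 1851 and 2289 CPM. Rpl5, the partner of Rpl11 in the Mdm2-binding complex, was at 795, 1148 and 1008 CPM and at 926, 1025 and 1378 CPM. In these 3 genes and in Rpl14 the highest value was that of knockout 3, and the other knockouts lay within or close to the floxed range. Rpl14 was at 465, 796 and 646 CPM and at 593, 668 and 881 CPM. The log2 fold changes of Rpl23, Rpl4, Rpl5 and Rpl14 were 0.17 ± 0.20, 0.18 ± 0.23, 0.17 ± 0.24 and 0.17 ± 0.25 (edgeR adjusted p from 0.779 to 0.827). Rps19bp1, which is not a subunit protein, was at 16.6, 28.3 and 20.97 CPM and at 22.0, 20.7 and 27.1 CPM (log2 fold change 0.08 ± 0.22, edgeR adjusted p = 0.917).

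Fau and Rack1, ribosomal protein genes whose names the rule does not catch, gave like values. Fau, which encodes a ubiquitin-like protein fused to a 40S protein, was at 424, 844 and 718 CPM in the floxed libraries and at 541, 539 and 807 CPM in the knockout libraries. Rack1, a signalling scaffold on the 40S head, was at 1011, 1841 and 1668 CPM and at 1284, 1109 and 1419 CPM. The knockouts lay inside the floxed range in both, and the log2 fold changes were -0.07 ± 0.28 and -0.25 ± 0.26 (edgeR adjusted p = 0.942 and 0.740).

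The ribosomal protein genes differed far more between libraries of 1 group than between the groups, and they did so together. With each gene's log2 CPM centred on its mean over the 6 libraries, the floxed libraries 1, 2 and 3 had medians over the 85 genes of -0.54, 0.40 and 0.09, and the knockout libraries 1, 2 and 3 had -0.09, -0.11 and 0.27. Floxed control 1 is thus the low library, and floxed control 2 and knockout 3 are the high ones. The mean of these medians was -0.02 ± 0.48 (SD, n = 3) in floxed controls and 0.02 ± 0.21 in knockouts. Floxed control 1 held the lowest value of 84 of the 85 genes (98.8%), all but Rps27rt, against 25.4% of all genes tested. Floxed control 2 held the highest value of 61 (71.8%), against 21.4% of all, and knockout 3 held that of 23. All 85 genes were higher in floxed control 2 than in floxed control 1, by 1.90-fold in the median, and all 85 were higher in knockout 3 than in knockout 2. The 40S and 60S symbols moved alike, with medians of -0.55 and -0.53 in floxed control 1 and of 0.39 and 0.40 in floxed control 2.

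**Figure D3:**
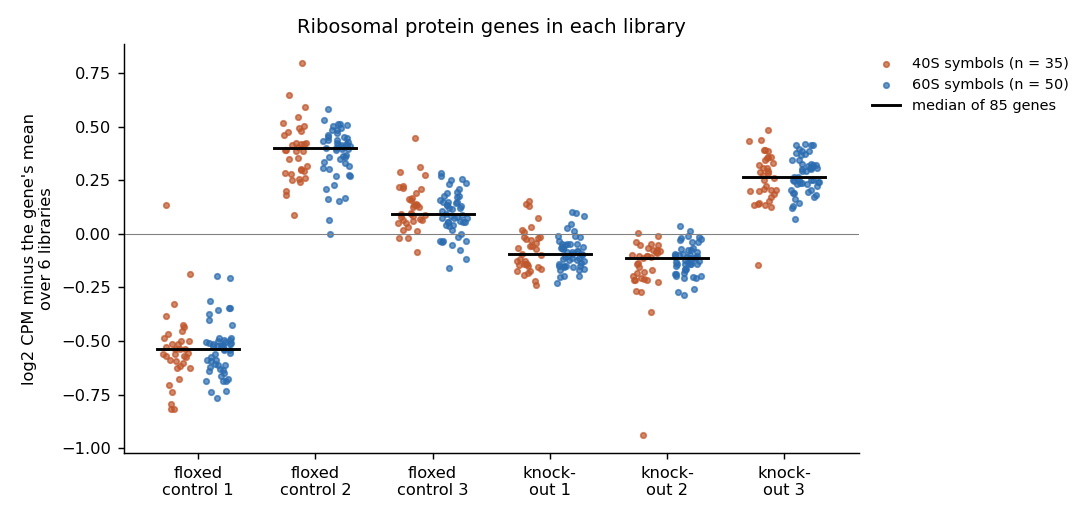
Log2 CPM of each ribosomal protein gene minus its mean over the 6 libraries, with 1 point per gene, 40S symbols in orange and 60S symbols in blue, and a bar at the median of the 85 genes. The genes lie low together in floxed control 1 (median -0.54) and high together in floxed control 2 (0.40) and knockout 3 (0.27), and the single point near -1 in knockout 2 is Rps27rt.

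Which libraries were included therefore sets the sign of the median fold change. Without floxed control 1 the members' median log2 fold change was -0.19, and without floxed control 2 it was 0.22. Without knockout 3 it was -0.13, and without floxed control 3, knockout 1 or knockout 2 it lay between 0.06 and 0.09. Without floxed controls 1 and 3, the libraries with high lymphocyte markers, it was -0.31, with 1 control library left that was assumed to vary like the others. Without floxed control 2 and knockout 1, the libraries that stood apart on clock genes and enterocyte markers, it was 0.28. In none of these fits did edgeR call a ribosomal protein gene, while it called 7.21% of all genes tested without floxed control 2 and 7.06% without floxed control 2 and knockout 1, and 0.0155% with all libraries.

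Several measured properties moved with the libraries, and their part in the pattern was not tested. Ribosomal protein mRNAs are short, with a median length of 712.75 bases against 2175 for all genes. Among 450 genes tested that are not ribosomal protein genes and are shorter than 600 bases, the centred medians were -0.16, 0.21 and 0.07 in the floxed and 0.01, -0.11 and 0.09 in the knockout libraries. These have the signs of the ribosomal protein genes in 5 libraries, all but knockout 1, at a smaller size. Among 2206 genes of 4000 bases or more they were 0.25, -0.08 and -0.03 in the floxed and 0.02, 0.03 and -0.16 in the knockout libraries, so that floxed control 1 was the highest library for long transcripts. Within the ribosomal protein genes, the 28 under 600 bases and the 56 longer ones had like medians, -0.61 and -0.51 in floxed control 1 and 0.43 and 0.38 in floxed control 2. The 1264 other genes with a run of at least 8 pyrimidines at the start gave 0.06, 0.02 and 0.02 in the floxed and -0.001, -0.03 and -0.02 in the knockout libraries. The 25 ribosomal protein genes with such a run (-0.57 in floxed control 1, 0.42 in floxed control 2) and the 40 with a shorter one (-0.53 and 0.38) were close to each other. Total counts were 11108511 and 12075398 in floxed controls 1 and 3, whose ribosomal protein medians were -0.54 and 0.09, and 16542933 or more in the other 4 libraries.

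**Figure D4:**
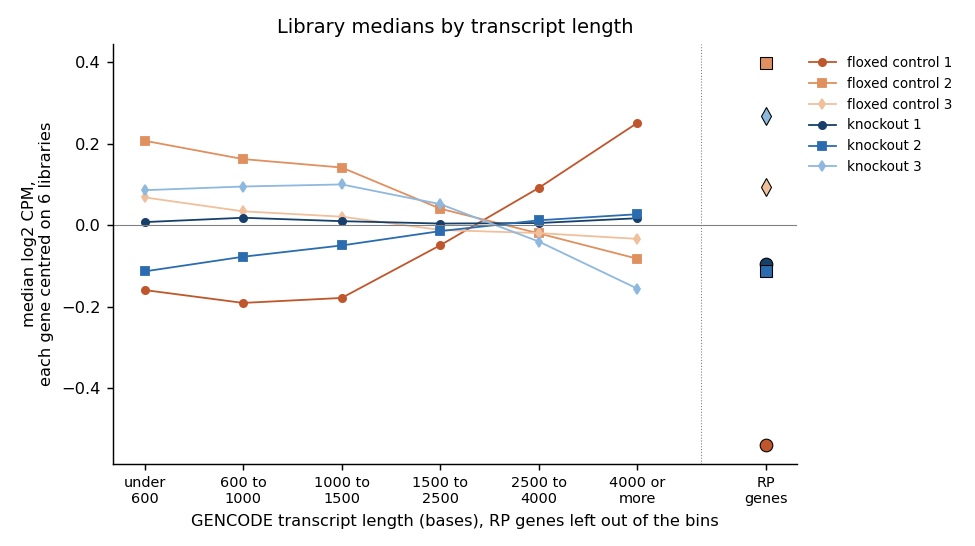
Median centred log2 CPM of the genes tested by GENCODE transcript length in bases, with 1 line per library, the ribosomal protein genes left out of the bins and their own median at the right. Floxed control 1 runs from -0.16 in the shortest bin to 0.25 in the longest and floxed control 2 from 0.21 to -0.08, while the ribosomal protein genes lie beyond every bin in both.

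Markers of cell types also differed between the libraries. All 14 Paneth markers tested were lower in every knockout than in every floxed control, with a summed level of 82619 to 163021 CPM against 27909 to 42997 CPM. The groups did not overlap in 17.3% of all genes tested. By edgeR, 0 of the 14 passed after adjustment (smallest edgeR adjusted p 0.0680), against 0.0155% of all genes tested. The Paneth markers were highest in floxed control 3, where the ribosomal protein median was 0.09. The 12 T cell markers tested summed to 252, 66.6 and 199.6 CPM in the floxed libraries 1, 2 and 3 and to 60.4 to 74.7 CPM in the knockout libraries, and the 7 B and plasma cell markers to 59.2, 13.0 and 40.3 CPM and to 10.5 to 16.98 CPM. In both lists floxed control 1 was the highest library and floxed control 3 the next, and their ribosomal protein medians were -0.54 and 0.09. The 20 division markers had centred medians of -0.40, 0.24 and -0.52 in the floxed and 0.21, 0.22 and 0.26 in the knockout libraries. Clock genes had -0.89 in floxed control 2 and -0.82 in knockout 1, which were high and slightly low in the ribosomal protein genes. The 10 enterocyte markers were lowest in the same libraries. They summed to 4631 CPM in floxed control 2 and 3778 CPM in knockout 1, against 6613 to 10400 CPM in the others. The part of these markers in the ribosomal protein values was not tested.

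The ribosomal protein genes were also read against each other. The SD of a core gene over the 6 libraries was 0.34 log2 units in the median, and fell to 0.09 once each library's median of the 85 genes was subtracted. The subtracted median is that of the same genes, so part of this fall is built in. The same SD was 0.16 for the 8 paralogs, copies and Rps19bp1. Some genes departed from the rest: relative to the members' median, Rpl4 ran from -0.40 log2 units in floxed control 2 to 0.34 in floxed control 1, Rps6 from -0.31 to 0.35 in the same libraries, and Rps27rt from -0.82 in knockout 2 to 0.67 in floxed control 1. With libraries scaled to the median of the ribosomal protein genes, an added analysis chosen after the data were seen, edgeR gave 0 of 85 genes at an unadjusted p under 0.05 (smallest p 0.0962), against 4.72% of all genes tested. On this scale the groups did not overlap in 8 of 85 genes (9.41%), against 4.63% of all genes tested. With TMM scaling these shares of all genes tested were 13.7% (unadjusted edgeR p under 0.05) and 17.3% (groups apart). The scaling takes the shared shift out of the members and puts its reverse into the other genes. These shares therefore do not compare the members with other genes on equal terms. Of the 8, 4 were higher in knockouts, Rpl22l1, Rps29 and Rpl36al among them, and 4 were lower, Rpsa, Rpl15 and Rpl12 among them. These 8 relative differences were small: Rpl36al was at -0.04, -0.12 and -0.25 log2 units in floxed controls and at 0.18, 0.09 and 0.15 in knockouts, and Rpl12 was at 0.00, 0.03 and 0.10 and at -0.10, -0.01 and -0.01.

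Paralogs of a core protein were compared as a ratio to that protein, which leaves out shifts shared by both genes. Rpl36al was at 52.9%, 48.8% and 45.7% of the Rpl36a level in floxed controls and at 65.3%, 57.2% and 54.9% in knockouts. All 3 knockouts were above all 3 floxed controls, with log2 ratios of -0.76 ± 0.13 and -1.03 ± 0.11 (SD, n = 3) and a difference of 0.27. An exact two-sided permutation test gave p = 0.1, the smallest p that 3 against 3 libraries allow, and 0.4 after Benjamini-Hochberg adjustment over the 4 pairs. The other 3 pairs overlapped between the groups. Rpl22l1, whose level Rpl22 is known to restrain, was at 11.7%, 12.2% and 11.7% of Rpl22 in floxed controls and at 14.2%, 11.8% and 11.8% in knockouts. Rps27l, a p53 target, was at 20.6%, 18.8% and 17.3% of Rps27 and at 23.7%, 18.3% and 18.7%. Rpl7l1 was at 11.3%, 9.76% and 8.77% of Rpl7 and at 12.2%, 10.4% and 9.25%. In these 3 pairs knockout 1 was the highest knockout, the log2 ratios differed by 0.08 to 0.09, and the exact permutation p-values were 0.5 to 0.7 (0.7 adjusted).

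Other genes of ribosome production and translation were counted by list. After adjustment over all genes tested, edgeR called 0 genes in either direction in each of these lists. It called 0.0155% of all genes tested (2 genes), so a count of 0 is near the share over all genes. The signs depend on the scaling. Over all genes tested the median log2 fold change was -0.01, and library totals alone moved it by 0.22. Of 45 ribosome biogenesis factors, 43 had a positive log2 fold change and 2 a negative one, with a median of 0.23, and 11 had an unadjusted p under 0.05, which 13.7% of all genes tested reached. Ebna1bp2, a nucleolar factor of 60S assembly, was at 38.9, 53.8 and 39.8 CPM in the floxed libraries and at 57.0, 61.5 and 78.1 CPM in the knockout libraries. Gnl3 (nucleostemin), a nucleolar GTPase of dividing cells, was at 36.7, 44.6 and 29.4 CPM and at 46.2, 54.8 and 60.7 CPM. The groups did not overlap in 8 of the 45 factors, against 17.3% of all genes tested. In Ebna1bp2 and Gnl3, picked for their small p, every knockout was above every floxed control. Their log2 fold changes were 0.57 ± 0.19 and 0.54 ± 0.19 (SE; edgeR adjusted p = 0.222 and 0.238). Both passed the test without floxed control 2 (edgeR adjusted p = 0.0395 and 0.0485), as did 7.21% of all genes tested. Without floxed controls 1 and 3 their log2 fold changes were 0.35 and 0.33 (edgeR adjusted p = 0.704 for both). The centred medians of the list were -0.22, 0.11 and -0.32 in the floxed and 0.05, 0.12 and 0.21 in the knockout libraries. Floxed control 3 was thus low in biogenesis factors and division markers while its ribosomal protein genes were not.

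RNA polymerase I, which transcribes the ribosomal RNA, had 14 genes tested, 12 with a positive and 2 with a negative log2 fold change, a median of 0.12 and 1 gene at an unadjusted p under 0.05 (13.7% of all genes tested). That gene, Taf1a, had a log2 fold change of 0.82 ± 0.27 (SE; edgeR adjusted p = 0.228), and Taf1d had one of 0.41 ± 0.20 (edgeR adjusted p = 0.395). Of 5 escort genes, whose products carry ribosomal proteins to the assembly site, 4 were positive. An unadjusted edgeR p under 0.05 was reached by 0 of the 5, against 13.7% of all genes tested.

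Other genes whose mRNAs carry TOP tracts, translation factors and a few others such as Npm1 and Hnrnpa1, were split by sign. Of 18 tested, 9 were positive and 9 negative, with a median log2 fold change of -0.01. At an unadjusted edgeR p under 0.05 there were 0 genes, against 13.7% of all genes tested. Their centred medians of -0.24, 0.21 and 0.05 in the floxed and -0.09, -0.06 and 0.16 in the knockout libraries have the sign of the ribosomal protein genes in each of the 6 libraries. Npm1, a nucleolar chaperone, had the smallest p, with 386 ± 38.3 CPM in the floxed libraries and 498 ± 90.8 CPM in the knockout libraries (SD, n = 3) and a log2 fold change of 0.37 ± 0.20 (edgeR adjusted p = 0.449). Hnrnpa1, an RNA-binding protein of splicing, followed at 0.33 ± 0.18 (edgeR adjusted p = 0.466). Of 24 other translation factors, 19 were positive and 5 negative, with a median of 0.14. An unadjusted edgeR p under 0.05 was reached by 0 of the 24, against 13.7% of all genes tested. Eif2s2 and Eif2s1, subunits of the factor that brings the initiator tRNA, had log2 fold changes of 0.32 ± 0.17 and 0.29 ± 0.17 (edgeR adjusted p = 0.432 and 0.474).

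The 78 mitochondrial ribosomal protein genes, which encode the separate ribosome of mitochondria, followed the cytoplasmic ones from library to library. Their centred medians were -0.54, 0.38 and -0.12 in the floxed and 0.11, -0.05 and 0.24 in the knockout libraries, with floxed control 1 lowest and floxed control 2 highest in both sets. They parted in floxed control 3 and knockout 1, where the 2 sets had opposite signs. Of the 78, 70 had a positive and 8 a negative log2 fold change, with a median of 0.14. At an unadjusted edgeR p under 0.05 there were 0 genes, against 13.7% of all genes tested. Since the 78 genes moved together across libraries, neither count rests on 78 independent values. Mrps9 and Mrps25 had the smallest p-values, with log2 fold changes of 0.43 ± 0.20 and 0.45 ± 0.21 (SE; edgeR adjusted p = 0.372 and 0.373). Both passed the test without floxed control 2 (edgeR adjusted p = 0.0418 and 0.0273), as did 7.21% of all genes tested. Without floxed controls 1 and 3 they were at 0.11 and 0.07 (edgeR adjusted p = 0.891 and 0.927).

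**Figure D5:**
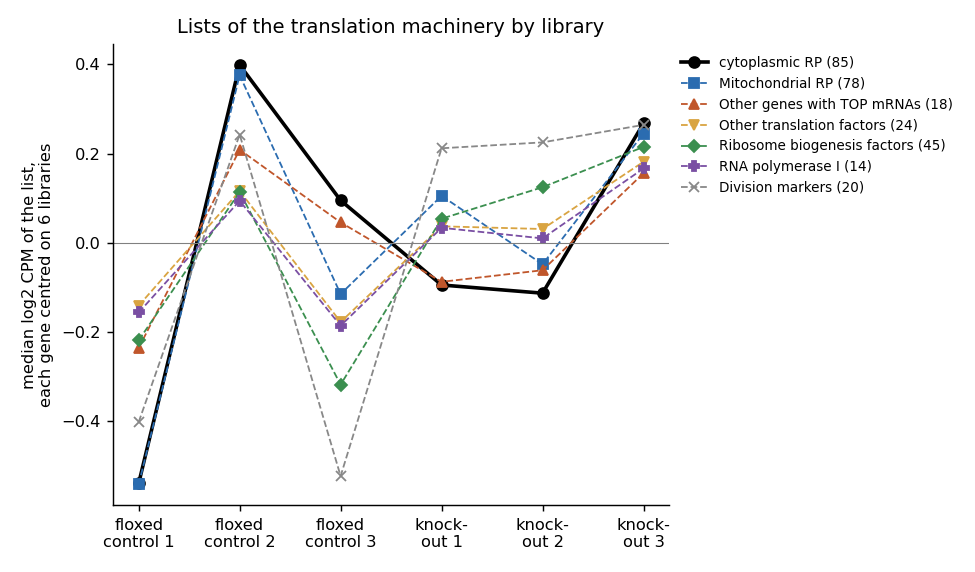
Median centred log2 CPM of 7 gene lists in the 6 libraries, with the number of genes tested in each list. Cytoplasmic and mitochondrial ribosomal protein (RP) genes share the lowest point in floxed control 1 (-0.54) and the highest in floxed control 2 (0.40 and 0.38), while division markers and biogenesis factors are lowest in floxed control 3.

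Genes that control ribosomal protein synthesis gave no call either, where edgeR called 0.0155% of all genes tested. The log2 fold changes were 0.05 ± 0.19 for Myc, which drives ribosome genes, -0.21 ± 0.17 for Mtor, 0.25 ± 0.19 for the S6 kinase gene Rps6kb1, 0.09 ± 0.17 for Larp1 and -0.04 ± 0.25 for Eif4ebp1 (SE; edgeR adjusted p from 0.618 to 0.971). Of the 9 regulators tested, 5 were positive and 4 negative. Among p53 targets, which respond to free ribosomal proteins, 12 of 13 were tested, 5 were positive and 7 negative, with a median of -0.17 and 3 at an unadjusted p under 0.05 (13.7% of all genes tested). Btg2, an antiproliferative gene picked for its small p, was at 68.5 ± 15.7 CPM in the floxed libraries and 45.4 ± 1.24 CPM in the knockout libraries (SD, n = 3). Every knockout was below every floxed control, and the log2 fold change was -0.59 ± 0.19 (edgeR adjusted p = 0.204). The groups did not overlap in 2 of the 12 targets tested, against 17.3% of all genes tested. Without floxed control 2 the adjusted p of Btg2 by edgeR was 0.0180, in a fit that called 7.21% of all genes tested, and without floxed controls 1 and 3 its log2 fold change was -0.10 (edgeR adjusted p = 0.892). Sesn2, a stress-induced inhibitor of mTOR signalling, had a log2 fold change of -0.53 ± 0.21 (edgeR adjusted p = 0.289).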

How the data were processed

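RNA of small intestinal crypts was extracted with Trizol and read from 1 end over 50 bp by DNBSEQ, per the labels' protocols. The genome build was mm10, per the submitters' processing notes, while the aligner, counter, annotation and strand use were not given in the sources used here. As deposited by the authors, the values are estimated counts per gene (expected counts), and are not normalised: 31.1% to 35.2% of a library's values are not whole. They were rounded before the count tests, although the design had assumed raw counts. Precision is limited by 3 libraries per group.

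edgeR 4.0.16 in R 4.3.3 was run on all 6 libraries (filterByExpr, TMM, robust glmQLFit, glmQLFTest, Benjamini-Hochberg over 12943 genes, threshold 0.05). Centred values used log2 CPM with a prior count of 2. DESeq2 1.42.0, limma-voom (limma 3.58.1), other scalings and filters, a replicate block and left-out libraries were alternatives. The edgeR step was tested on simulated data. Python 3.11.15 with pandas 2.3.3, numpy 2.4.6 and matplotlib 3.10.9 was used for sequences and figures. Length, GC and shared 50-base words came from GENCODE M21, and starts from RefSeq, GRCm38.p6. All 85 gene IDs matched RefSeq.

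Named genes were the 5 members with the smallest p in each direction, the 3 highest per length of each subunit, paralog pairs, Rps19bp1, Fau, Rack1, up to 2 genes with the smallest p in 6 pathway lists, and 5 regulators. Values of some of these genes are not reported here. Copies of Rps6, Rps27 and Rpl37, the lowest genes per length and the 8 genes apart on the relative scale were picked with their values already known. The members and lists were chosen with earlier results of these data known.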

Additional observations from a re-analysis of the deposited data

How the results depend on the processing

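The count of ribosomal protein genes called was 0 in each direction under all 19 alternatives. Of all genes tested, DESeq2 called 2.35% and limma-voom 0.0155%. EdgeR called 7.21% without floxed control 2 and 7.06% without floxed control 2 and knockout 1. For the other alternatives the share over all genes is not given here, so a count of 0 there cannot be read as a result about the members. The members' median log2 fold change ran from -0.31 (without floxed controls 1 and 3) to 0.28 (without floxed control 2 and knockout 1), and with 1 library left out from -0.19 to 0.22. Deviations of same-numbered libraries correlated at -0.18, -0.27 and 0.07 across genes, and floxed control 1 correlated best with knockout 2 (0.38). With 3 libraries per group, these values cannot decide whether the replicate numbers pair the libraries. With the replicate block the median was 0.03 and 0 genes were called. The share of counts with 1 library left out was 5.33% to 6.84% in floxed controls and 6.54% to 7.44% in knockouts. The sign of several single genes depended on the setting, and the cause was not tested. With library totals only, the log2 fold change was 0.040 for Rps10, 0.033 for Rplp0, 0.17 for Fau, 0.00022 for Mtor and 0.21 for Eif4ebp1. Without floxed controls 1 and 3 it was -0.041 for Rpl36al, -0.10 for Rpl14, -0.22 for Rps19bp1 and -0.19 for Myc. Without floxed control 2 and knockout 1 it was 0.012 for Rps14, 0.012 for Rps10 and 0.24 for Fau. Scaled to the members it was -0.0076 for Myc. With 1 library left out at a time the ranges were -0.54 to 0.0048 for Rps14, -0.43 to 0.0099 for Rps10, -0.017 to 0.29 for Rpl23, -0.0095 to 0.31 for Rpl5, -0.0094 to 0.37 for Rpl14, -0.054 to 0.32 for Rps19bp1 and -0.10 to 0.17 for Rps6. They were -0.29 to 0.15 for Fau, -0.071 to 0.24 for Myc, -0.00088 to 0.17 for Larp1 and -0.24 to 0.24 for Eif4ebp1. For genes that kept their sign they were -0.80 to -0.30 for Rps27rt, -0.39 to -0.012 for Rplp0, 0.13 to 0.54 for Rpl36al, 0.046 to 0.28 for Rpl4 and -0.44 to -0.07 for Rack1. Without knockout 1 the log2 ratio to the core protein differed by -0.0055 for Rpl22l1, -0.030 for Rps27l and -0.014 for Rpl7l1, and with any 1 library left out these ran up to 0.13, 0.16 and 0.19. Among the list genes named, Ebna1bp2, Gnl3, Mrps9, Mrps25 and Btg2 passed the test under 2 of 19 alternatives, without floxed control 2 alone or with knockout 1, and Taf1a under 1, in fits that called 7.21% and 7.06% of all genes tested. Adding the counts of Rps6-ps4 to Rps6 left the members' median at -0.0057. Depth limits Rps23rg1 most, at 1.05 to 3.21 CPM.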

Other observations

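Among the ribosomal protein genes, the log2 fold change relative to the other members was set beside base composition. Over the 84 genes with a GENCODE length it had a Pearson r of -0.21 and a Spearman rho of -0.36 with transcript GC percent, given as a description, since the genes share 6 libraries. The 10 genes lowest in knockouts on that scale had a median GC of 55.3% and the 10 highest one of 51.0%, against 51.6% for all members. Other genes tested also differed with GC by library: the centred medians of 1517 genes at 58% GC or more were -0.08, 0.17 and 0.15 in floxed controls and 0.01, -0.16 and -0.08 in knockouts, and those of 937 genes under 42% GC were 0.17, -0.14 and -0.16 and -0.08, 0.17 and 0.11. The part of this in the differences among members was not tested.

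Further entries marked as pseudogenes of this family carried reads that the rule leaves out. Rpl31-ps12, which holds 20.2% of the 50-base words of Rpl31, had counts of 588, 1641 and 797 in floxed controls and of 1560.4, 1279 and 2181 in knockouts. Rpl34-ps1 had 41.8, 6.53 and 15.3 and 15.3, 0 and 0.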
